A study of Arabidopsis thaliana with 8 samples.

Results

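The flavonoid and anthocyanin pathway was followed through 31 genes of Arabidopsis thaliana. With earlier results of these data known, they were chosen by locus for their known roles from the 37336 genes of the deposited tables. They comprised 5 enzymes of phenylpropanoid entry, 6 early flavonoid enzymes, 8 late enzymes and transport proteins of anthocyanin synthesis and flavonoid decoration, 4 MYB activators, 4 partners of these (3 bHLH factors and the WD40 protein TTG1), 3 flavonol MYBs and 1 repressor, MYBL2. The entry enzymes were PAL1 (AT2G37040), PAL2 (AT3G53260), C4H (AT2G30490), 4CL1 (AT1G51680) and 4CL3 (AT1G65060). The early enzymes were CHS (AT5G13930), CHI (AT3G55120), CHIL (AT5G05270), F3H (AT3G51240), F3'H (AT5G07990) and FLS1 (AT5G08640), and the late genes were DFR (AT5G42800), LDOX (AT4G22880), UGT75C1 (AT4G14090), UGT79B1 (AT5G54060), 5MAT (AT3G29590), TT19 (AT5G17220), UGT78D2 (AT5G17050) and UGT78D1 (AT1G30530). The MYB activators were PAP1 (AT1G56650), PAP2 (AT1G66390), MYB114 (AT1G66380) and MYB113 (AT1G66370), their partners TT8 (AT4G09820), GL3 (AT5G41315), EGL3 (AT1G63650) and TTG1 (AT5G24520), the flavonol MYBs MYB12 (AT2G47460), MYB11 (AT3G62610) and MYB111 (AT5G49330) and the repressor MYBL2 (AT1G71030). RNA from above-ground tissue of plants grown for 6 weeks at 21 °C, under 8 h of light and 16 h of dark, was sequenced in 8 genotypes with 3 biological replicate libraries each. Every genotype carried summ2-8, an allele of the immune receptor gene SUMM2, so no value comes from plants with wild-type SUMM2. The control carried summ2-8 alone. The single mutants were pat1-1summ2-8, path1-4summ2-8 and path2-1summ2-8. The doubles were pat1-1path1-4summ2-8, pat1-1path2-1summ2-8 and path1-4path2-1summ2-8, and the triple combination was pat1-1path1-4path2-1summ2-8. They are called here by their pat and path alleles. PAT1, PATH1 and PATH2 are related proteins of the family of yeast Pat1, an activator of mRNA decapping, and each gene was represented by 1 allele.

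Phenylpropanoid entry turns phenylalanine into coumaroyl-CoA, which also feeds lignin and sinapate esters. Chalcone synthase (CHS) commits coumaroyl-CoA to flavonoids, the early enzymes lead to flavonols, and the late enzymes make, glycosylate, acylate and transport anthocyanins, the red and purple pigments of stressed or strongly lit leaves. MYB12, MYB11 and MYB111 activate early genes. A complex of a MYB such as PAP1, a bHLH such as TT8 and TTG1 activates late genes, and the small MYB protein MYBL2 opposes it.

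Of the 31 genes, 27 passed the filter on low counts and were tested with edgeR among 20346 genes. A gene is said to have risen or fallen, or to be called, where its Benjamini-Hochberg adjusted p over all tested genes was below 0.05. Levels of 1 gene across genotypes are CPM (counts scaled to a fixed library total, after TMM). Levels of different genes are TPM (the same idea per transcript length). Differences are log2 fold changes ± SE, and each mean ± SD is over n = 3 libraries. The SE was taken back from the edgeR F statistic, as the size of the log2 fold change over the square root of F. For genes of few counts, such as TT8 and MYB12, it can lie below counting error alone. Library totals ran from 14187145 to 39180748 counts, and replicates correlated at r = 0.981 to 0.994 across genes. PAT1 CPM were 46.6 to 50.1 in the control, 35.4 to 36.6 in pat1-1 and 35.5 to 38.8 in the triple combination, and PATH1 CPM were 59.5 to 65.5 in the control and 44.6 to 54 in path1-4. PAT1 was not called in pat1-1path2-1, PATH1 was not called in path1-4path2-1, and PATH2 was called lower in no genotype and higher in the triple combination (0.24 ± 0.10, adjusted p = 0.0465), so the gene counts do not check these labels and genotypes are given as labelled. SUMM2 was called in no genotype against the control. Of PAT1, PATH1, PATH2 and SUMM2, 1 was called higher in pat1-1path2-1 than in the control, and none was called lower there. Summed CPM of 4 leaf markers were 37400 to 55700, of 4 flower markers 0.589 to 4.34 (highest in pat1-1 and pat1-1path1-4) and of 6 seed markers at most 0.195 in any library. Summed CPM of 4 root markers were 26.1 to 62.5 in the control, 60.3 to 89.2 in pat1-1, 25 to 38.3 in path1-4, 23.2 to 56.8 in path2-1, 57.4 to 107 in pat1-1path1-4, 44.3 to 59.2 in pat1-1path2-1, 26.9 to 38.4 in path1-4path2-1 and 102 to 137 in the triple combination. In the triple combination 3 of these 4, PYK10, NAI2 and CASP1, were called higher than in the control, and the root hair gene EXP7 was at 0 in both genotypes. The part of root transcripts in the results was not tested.

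The 250 bases before each annotated gene start were searched on both strands for the G-box CACGTG, a motif of bZIP and bHLH factors, for its core ACGT, which lies inside every G-box, and for 3 AC elements, motifs of MYB factors, of which AC element I reads ACCTACC, the next form, AC element II, reads ACCAACC and the last form, AC element III, reads ACCTAAC. The G-box was present in 8 of 31 windows (25.8%), against 1780 of 27437 windows of nuclear protein-coding genes (6.49%). ACGT was present in 17 (54.8%, against 44.1%) and any AC element in 5 (16.1%, against 6.12%). CHS, CHIL, F3H, DFR, UGT79B1, PAP2, MYB114 and MYB12 held a G-box. The windows of the 6 of these that were tested are shown because their transcripts differed in direction and size between genotypes. They were read 5′ to 3′ on the gene's strand from the RefSeq sequence of TAIR10.1, and capitals mark every motif searched.
CHS, chr5:4488226-4488475, plus strand: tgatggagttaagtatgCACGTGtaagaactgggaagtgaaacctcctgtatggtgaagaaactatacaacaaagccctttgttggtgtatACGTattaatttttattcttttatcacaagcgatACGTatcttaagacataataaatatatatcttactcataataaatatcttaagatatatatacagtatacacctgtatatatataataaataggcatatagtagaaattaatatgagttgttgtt
CHIL, chr5:1563036-1563285, plus strand: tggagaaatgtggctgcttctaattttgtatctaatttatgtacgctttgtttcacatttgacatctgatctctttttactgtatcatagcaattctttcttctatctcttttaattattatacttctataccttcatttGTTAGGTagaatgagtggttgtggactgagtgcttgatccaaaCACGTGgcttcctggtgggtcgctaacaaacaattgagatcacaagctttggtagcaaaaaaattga
DFR, chr5:17166033-17166282, minus strand: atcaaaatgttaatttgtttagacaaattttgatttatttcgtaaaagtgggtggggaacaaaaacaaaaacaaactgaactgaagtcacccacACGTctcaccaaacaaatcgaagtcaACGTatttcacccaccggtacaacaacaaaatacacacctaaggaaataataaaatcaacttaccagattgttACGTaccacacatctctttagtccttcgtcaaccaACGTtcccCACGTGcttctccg
UGT79B1, chr5:21938397-21938646, minus strand: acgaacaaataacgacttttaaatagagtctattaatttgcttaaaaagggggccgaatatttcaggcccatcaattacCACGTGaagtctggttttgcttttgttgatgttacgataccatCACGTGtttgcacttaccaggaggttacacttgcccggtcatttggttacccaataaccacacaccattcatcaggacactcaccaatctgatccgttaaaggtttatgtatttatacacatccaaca
MYB114, chr1:24757048-24757297, plus strand: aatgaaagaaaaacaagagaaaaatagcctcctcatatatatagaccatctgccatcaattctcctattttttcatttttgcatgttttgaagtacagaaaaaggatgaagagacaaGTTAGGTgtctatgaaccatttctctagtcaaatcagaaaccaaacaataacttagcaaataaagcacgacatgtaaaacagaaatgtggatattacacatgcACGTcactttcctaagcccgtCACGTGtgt
MYB12, chr2:19476076-19476325, plus strand: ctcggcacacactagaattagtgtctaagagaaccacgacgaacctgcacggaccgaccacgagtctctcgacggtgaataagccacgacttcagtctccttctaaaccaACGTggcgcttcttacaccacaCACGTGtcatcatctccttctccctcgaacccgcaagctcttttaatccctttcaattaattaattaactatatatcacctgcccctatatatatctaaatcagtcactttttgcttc
The G-box began 233 bases before the start of CHS, 118 before MYB12, 67 before CHIL, 14 before DFR and 9 before MYB114, and UGT79B1 held 1 at 171 and another at 128 bases. These are matches of letters, not sites of binding.

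In TAIR10.1 the genes described most lie dispersed, CHS at chr5:4488476-4490264, C4H at chr2:12993625-12996012, PAP1 at chr1:21233555-21235292, TT8 at chr4:6181881-6186523 and TTG1 at chr5:8370317-8372847. In the control, MYBL2 had the highest level of the 31 genes, at 389 ± 26.6 TPM. TTG1 (72 ± 8.35 TPM) and 4CL1, a 4-coumarate CoA ligase (70.1 ± 4.67 TPM), came next and did not differ beyond their spread. CHS (38.3 ± 5.99 TPM) and the cinnamate 4-hydroxylase C4H (37.5 ± 1.04 TPM) did not either. PAP1 stood at 25.2 ± 3.11 TPM, the dihydroflavonol reductase DFR at 5.12 ± 2.92 and the anthocyanidin synthase LDOX at 2.31 ± 0.858. The bHLH genes TT8 (0.615 ± 0.0834 TPM), EGL3 (0.597 ± 0.189 TPM) and GL3 (0.0721 ± 0.0523 TPM) were among the lowest.

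In the triple combination 3 of 5 entry enzymes rose, while chalcone synthase, 4 of 8 late genes and the regulators PAP1, MYB114, TT8 and MYB12 fell against the control. Of the 27 tested genes 11 fell, where 22.6% of all tested genes fell, and 4 rose, where 22.8% of all rose. The median log2 fold change was -0.68 over the 27 and 2e-04 over all tested genes. PAL1, C4H, 4CL1 and TTG1 rose, and CHS, F3'H, FLS1, LDOX, 5MAT, TT19, UGT78D1, PAP1, MYB114, TT8 and MYB12 fell. The same whole above-ground tissue was compared, in which fewer cells of a type and less RNA per cell cannot be told apart.

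**Figure D1:**
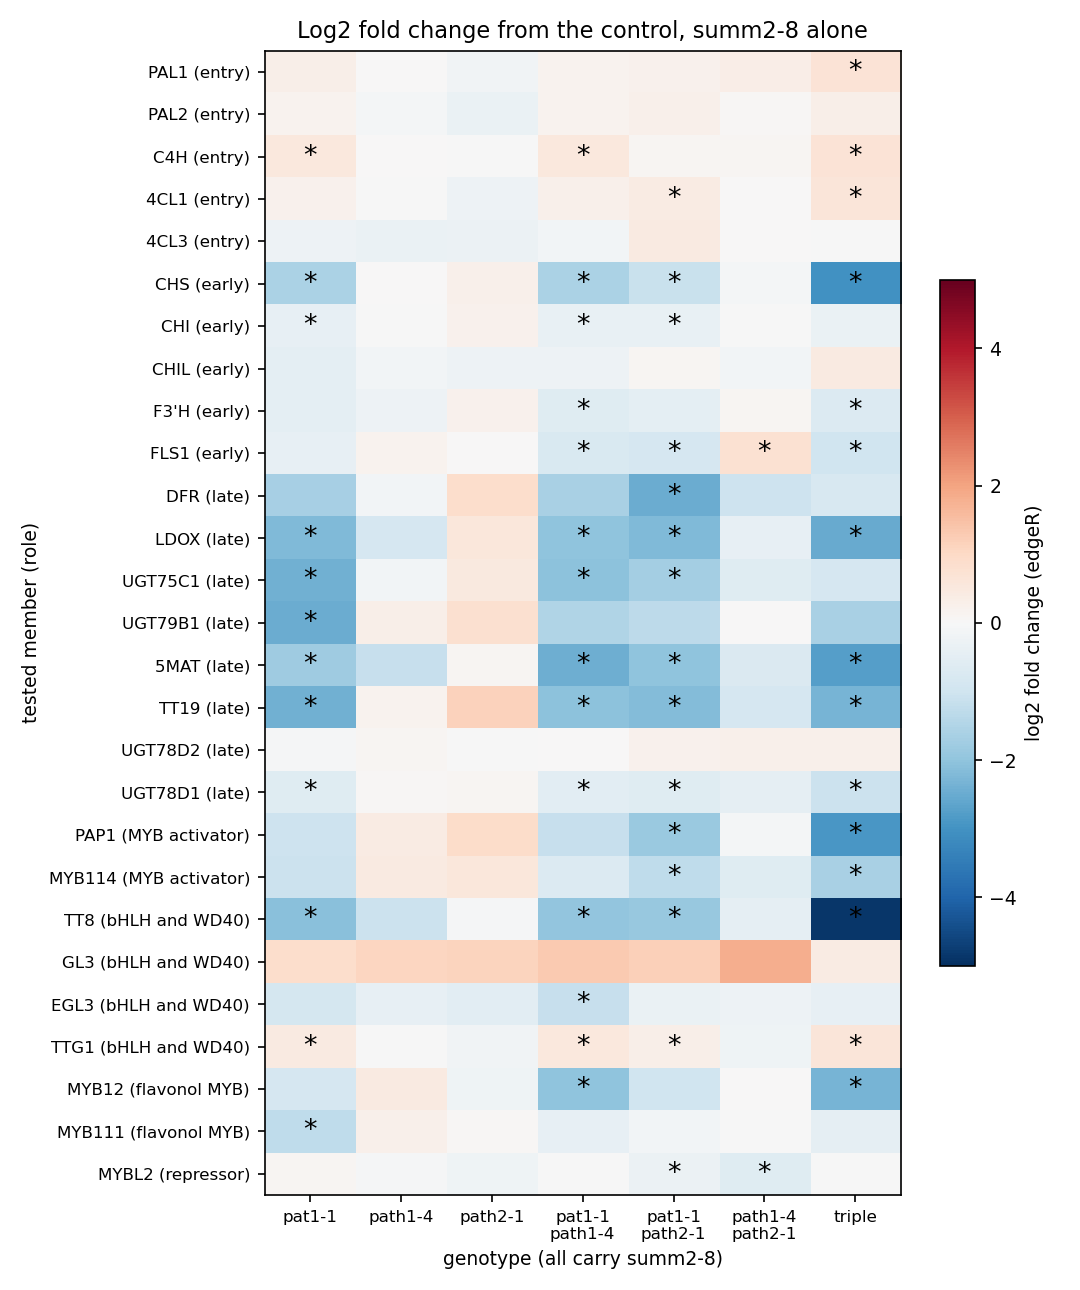
Colour gives the edgeR log2 fold change of each of the 27 tested genes (rows) in 7 genotypes (columns) against the control, and a star marks an adjusted p below 0.05. The path1-4 and path2-1 columns hold no star, where at most 0.103% of all tested genes were called in 1 direction. The triple combination has 11 genes that fell, where 22.6% of all tested genes fell, and 4 that rose, where 22.8% rose.

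In phenylpropanoid entry 3 of 5 enzymes rose and none fell in the triple combination, where 22.8% of all tested genes rose and 22.6% fell. C4H CPM were 48.6, 53.1 and 53.8 in the control and 83.7, 83.9 and 81.7 in the triple combination. The groups did not overlap, and C4H stood at 160% of the control (0.68 ± 0.09, adjusted p = 2.57e-06). PAL1, a phenylalanine ammonia-lyase, had 37.5, 41.1 and 37.4 CPM in the control and 71.5, 52.2 and 60.7 in the triple combination. It lay higher in all 3 libraries (0.67 ± 0.18, adjusted p = 0.00415). 4CL1 CPM were 123, 121 and 113 in the control and 191, 157 and 193 in the triple combination, again without overlap (0.60 ± 0.11, adjusted p = 0.000125). PAL2 (0.29 ± 0.14, adjusted p = 0.0883) and 4CL3, a ligase of the flavonoid branch (-0.01 ± 0.24, adjusted p = 0.975), were not called. Summed over the 5 enzymes, levels were 159 ± 3.81 TPM in the control and 240 ± 10.6 in the triple combination. The summed root markers were 26.1 to 62.5 CPM and 102 to 137 CPM in the same libraries, and the summed flower markers 1.44 to 1.63 CPM and 0.778 to 1.23 CPM, with AG called lower (-2.04 ± 0.34) and PI higher (2.66 ± 0.61).

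Of the 6 early flavonoid enzymes 5 were tested, of which 3 fell and none rose, where 22.6% of all tested genes fell and 22.8% rose. CHS CPM were 40.1, 51.2 and 38.4 in the control and 5.46, 5.42 and 4.91 in the triple combination. The groups lay far apart, and CHS stood at 12.2% of the control (-3.04 ± 0.23, adjusted p = 2.65e-09). FLS1, the main flavonol synthase, had 1.55, 1.86 and 1.4 CPM in the control and 0.934, 1.05 and 0.456 in the triple combination, without overlap (-0.98 ± 0.25, adjusted p = 0.00278). F3'H, which adds the 3′ hydroxyl group of quercetin and cyanidin, had 2.42, 2.91 and 2.42 CPM and 2.02, 1.62 and 1.19 CPM, also without overlap (-0.68 ± 0.19, adjusted p = 0.006). The chalcone isomerase CHI was not called (-0.31 ± 0.13, adjusted p = 0.0586), although its 3 libraries of the triple combination lay below the control. CHIL, a non-catalytic relative of CHI that assists CHS, was not called (0.43 ± 0.19, adjusted p = 0.0717). CHS and CHIL both hold a G-box in the windows shown, and their values had opposite signs.

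Among the 8 late genes 4 fell and none rose, where 22.6% of all tested genes fell and 22.8% rose. LDOX CPM were 1.21, 2.41 and 2.85 in the control and 0.486, 0.271 and 0.386 in the triple combination. They did not overlap, and LDOX stood at 17.7% of the control (-2.50 ± 0.53, adjusted p = 0.000671). The anthocyanin malonyltransferase 5MAT had 0.668, 2.76 and 2.11 CPM in the control and 0.374, 0.135 and 0.316 in the triple combination, all lower (-2.75 ± 0.63, adjusted p = 0.00128). TT19, a glutathione transferase needed to carry anthocyanins to the vacuole, had 1.21, 2.95 and 1.52 CPM and 0.561, 0.406 and 0.176 CPM (-2.31 ± 0.75, adjusted p = 0.0158). Its groups did not overlap either, but TT19 shares 108 exon bases (9.85%) with the opposite-strand gene PSY, which held 119029 counts against 812 for TT19. The strand setting of the counting is not given in the sources used here. UGT78D1, which adds rhamnose to flavonols, had 39, 44.3 and 36.8 CPM in the control and 20.9, 17.5 and 19.3 in the triple combination, without overlap (-1.06 ± 0.18, adjusted p = 5.07e-05).

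The other 4 late genes were not called. DFR CPM were 2.17, 8.19 and 5.23 in the control and 4.41, 2.3 and 2.32 in the triple combination, which overlap (-0.80 ± 0.65, adjusted p = 0.335). UGT78D2, a flavonoid glucosyltransferase, had a positive value (0.24 ± 0.10, adjusted p = 0.0628). The anthocyanin glycosyltransferases UGT75C1 (-0.82 ± 0.35, adjusted p = 0.0609) and UGT79B1 (-1.63 ± 0.68, adjusted p = 0.057) had negative values. UGT79B1 rested on 45 counts over the control and 16 over the triple combination. UGT75C1 shares 27.1% of its exon bases with opposite-strand genes, 230 bases with AT4G14100, which held 9738 counts against 1545, and 217 with the non-coding gene AT4G06175, which held 0. Summed over the 8 late genes, levels were 58.7 ± 9.78 TPM in the control and 35.5 ± 2.8 in the triple combination. Most of both sums came from UGT78D1 and UGT78D2, so they say little on the other late genes. UGT78D1, which acts on flavonols, stood at 31.6 ± 3.16 TPM in the control and 15.4 ± 0.95 in the triple combination. UGT78D2 stood at 11.4 ± 1.31 and 13.7 ± 0.575 TPM.

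Of the 4 MYB activators 2 were tested and both, PAP1 and MYB114, fell, where 22.6% of all tested genes fell. Of the 4 bHLH and WD40 genes TT8 fell and TTG1 rose, where 22.8% of all tested genes rose. PAP1 CPM were 17.6, 21.2 and 16.9 in the control and 3.55, 2.03 and 1.86 in the triple combination. The groups did not overlap, and PAP1 stood at 13.3% of the control (-2.91 ± 0.52, adjusted p = 0.00012). TT8 had 16, 23 and 23 counts in the control libraries and 2, 0 and 0 in the triple combination. The control level was 34.9 times that of the triple combination, with a 95% exact interval of 9.26 to 295 for counting error, and TT8 was called lower (adjusted p = 3.52e-06). MYB114, a relative of PAP1, had 0.961, 0.932 and 0.624 CPM in the control and 0.336, 0.338 and 0.14 in the triple combination, without overlap (-1.61 ± 0.48, adjusted p = 0.00885). It lies in tandem with the related genes MYB113 and PAP2 on chromosome 1, so its counts may hold or lack reads of these genes. The flavonol regulator MYB12 had 10, 7 and 11 counts in the control and 3, 2 and 1 in the triple combination (-2.32 ± 0.47, adjusted p = 0.000411), so few that its size is poorly known.

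TTG1, the partner shared by these complexes, rose instead. Its CPM were 95, 78.8 and 95.3 in the control and 120, 140 and 150 in the triple combination, without overlap (0.61 ± 0.08, adjusted p = 3.88e-06). The bHLH genes EGL3 (-0.40 ± 0.32, adjusted p = 0.318) and GL3 (0.41 ± 0.79, adjusted p = 0.7) and the flavonol regulator MYB111 (-0.46 ± 0.33, adjusted p = 0.273) were not called. MYBL2 was not called either and stood at 97.4% of the control (-0.04 ± 0.08, adjusted p = 0.71). Summed over the 4 MYB activators, levels were 26.6 ± 3.37 TPM in the control and 3.94 ± 1.42 in the triple combination.

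F3H, PAP2, MYB113 and MYB11 did not pass the filter. The flavanone hydroxylase F3H had 16 counts over the control and 22 over the triple combination. It shares 93.8% of its exon bases with the antisense non-coding gene AT3G51238, so its count cannot be read as its level. PAP2, an activator like PAP1, had 0, 5 and 3 counts in the control libraries, 8 in all, and 0 in pat1-1. Against a floor of 3 counts over pat1-1 the control level was 2.43 times as high. That ratio takes the 8 control counts as exact, so it is not a lower limit. MYB113 had 8 counts in the control and 1 in the triple combination, a ratio of 9.01 with a 95% exact interval of 1.21 to 400. MYB11, a flavonol MYB, had 15 counts over all 24 libraries.

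**Figure D2:**
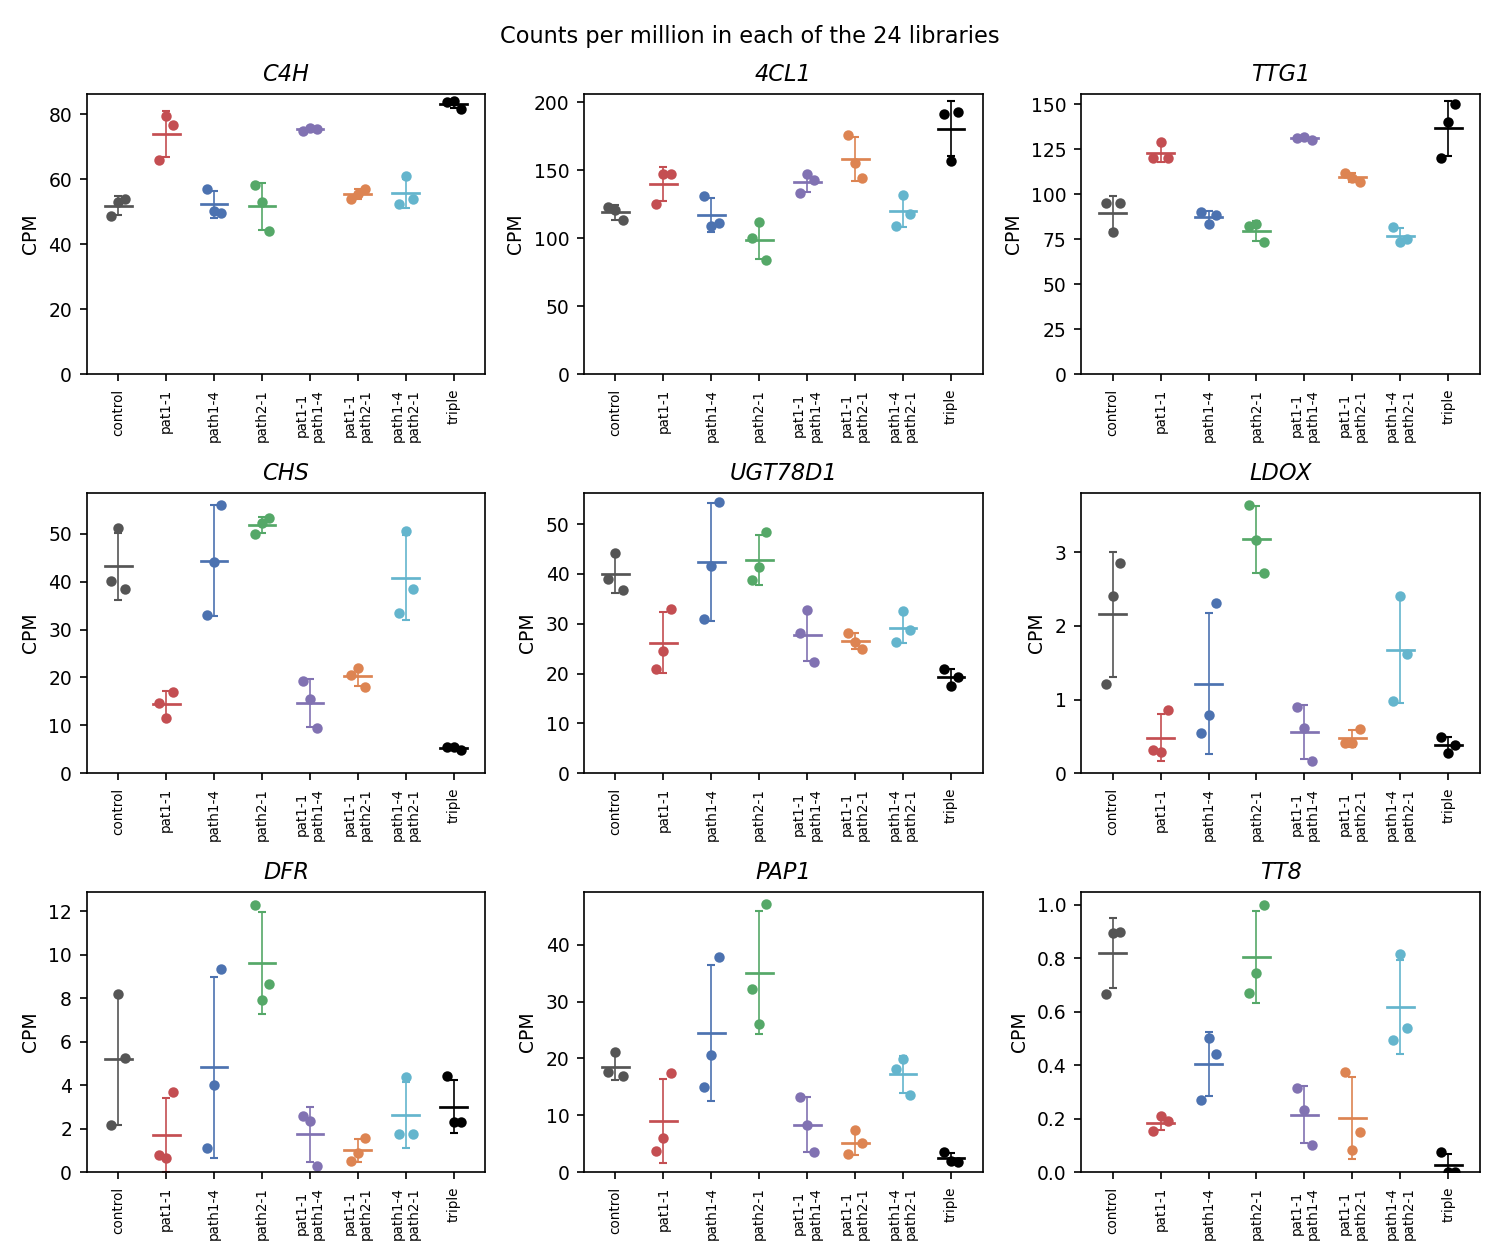
CPM (y axis, linear) of 9 pathway genes in each library of the 8 genotypes (x axis), with points for libraries, bars for means and whiskers for SD over 3 libraries. CHS lay between 4.91 and 5.46 CPM in the triple combination, below all other libraries, and DFR libraries of 1 genotype lay far apart.

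In pat1-1 alone CHS and 6 of 8 late genes fell against the control, and DFR (-1.65 ± 0.72, adjusted p = 0.104) and UGT78D2 (-0.06 ± 0.10, adjusted p = 0.696) were not called. There 10 of 27 genes fell, where 10.9% of all tested genes fell, and 2 rose, where 12% rose, with a median of -0.61 over the 27. The 5 lowest were UGT79B1 (-2.48 ± 0.81), UGT75C1 (-2.41 ± 0.42), TT19 (-2.40 ± 0.79), LDOX (-2.19 ± 0.54) and TT8 (-2.10 ± 0.46), with adjusted p from 0.000535 to 0.0339. CHS CPM were 14.7, 11.6 and 16.9, all below the control libraries (-1.59 ± 0.21, adjusted p = 5.91e-05). C4H (0.51 ± 0.09) and TTG1 (0.46 ± 0.08) rose, each without overlap with the control. PAP1 CPM were 3.72, 5.96 and 17.5, so that 1 library lay within the control range, and PAP1 was not called (-1.04 ± 0.46, adjusted p = 0.109). Without control replicate 2 or without pat1-1 replicate 2, 6 genes were called in place of 12. Summed root markers were 60.3 to 89.2 CPM in pat1-1, and summed flower markers were 3.52 to 4.34 CPM against 1.44 to 1.63 in the control, with both tested flower markers, AG (1.17 ± 0.26) and PI (2.44 ± 0.64), called higher. The part of these transcripts was not tested.

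No gene of the pathway was called in path1-4 or path2-1 with edgeR. In path1-4 0.0737% of all tested genes rose and 0.103% fell, and in path2-1 0.00983% rose and 0.00983% fell. At an unadjusted p below 0.05 edgeR gave 1 of 27 in path1-4 and 5 in path2-1, and DESeq2 called 0 of the 22 to which it gave an adjusted p in path1-4 and 0 of 10 in path2-1. PAP1 CPM in path2-1 were 32.2, 26 and 47.1, all above the control libraries, but the difference was not called (0.92 ± 0.43, adjusted p = 0.351).

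Both doubles with pat1-1 held less transcript of LDOX, 5MAT, TT19, UGT75C1, TT8 and CHS than the control. In pat1-1path1-4 12 of 27 genes fell, where 15.4% of all fell, and 2 rose, where 15.8% rose. The 5 lowest were 5MAT (-2.44 ± 0.62), UGT75C1 (-2.06 ± 0.40), TT19 (-2.04 ± 0.74), LDOX (-2.01 ± 0.51) and MYB12 (-2.00 ± 0.46), and TTG1 (0.54 ± 0.08) and C4H (0.54 ± 0.09) rose. Without control replicate 2 or pat1-1path1-4 replicate 3, 8 were called in place of 14. Summed flower markers were 2.3 to 3.98 CPM in pat1-1path1-4, where AG (0.78 ± 0.27) and PI (2.18 ± 0.65) were called higher, and 0.971 to 1.3 CPM in pat1-1path2-1, where AG was called lower (-0.81 ± 0.30) and PI was not called (1.16 ± 0.75). In pat1-1path2-1 13 of 27 fell, where 16.7% of all fell, and 2 rose, where 15.9% rose. The 5 lowest were DFR (-2.47 ± 0.77), LDOX (-2.22 ± 0.53), TT19 (-2.17 ± 0.75), 5MAT (-2.01 ± 0.59) and TT8 (-1.89 ± 0.44), and 4CL1 (0.41 ± 0.11) and TTG1 (0.29 ± 0.08) rose. PAP1 CPM were 3.16, 7.35 and 5.07 there, all below the control (-1.85 ± 0.48, adjusted p = 0.00591). C4H was not called in pat1-1path2-1 (0.10 ± 0.09, adjusted p = 0.426). Without control replicate 2, 9 were called in place of 15.

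In path1-4path2-1, FLS1 rose, where 9.18% of all tested genes rose, and MYBL2 fell, where 10.3% fell. FLS1 CPM were 2.27, 3.4 and 2.53, above every control library (0.75 ± 0.22, adjusted p = 0.0185). MYBL2 CPM were 354, 336 and 390 in the control and 251, 218 and 235 in path1-4path2-1, without overlap (-0.62 ± 0.08, adjusted p = 1.21e-05). CHS and PAP1 libraries overlapped those of the control. The count of 2 became 1 without control replicate 1 or path1-4path2-1 replicate 2, 4 without control replicate 2 and 5 without path1-4path2-1 replicate 1.

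Each mutation was added to 4 backgrounds, in 4 comparisons that share no library. With pat1-1 added, 10 of 27 genes fell in at least 3 of the 4 comparisons (37%), against 7.68% of all tested genes. They were CHS, FLS1, LDOX, UGT75C1, UGT79B1, 5MAT, TT19, UGT78D1, PAP1 and TT8. C4H and TTG1, 2 of 27, rose in at least 3, a share near the 7.97% of all tested genes that did. CHS and UGT78D1 fell in all 4 and TTG1 rose in all 4. With path1-4 added, 0 genes of the pathway were called in 1 direction at least 3 times, where 0.0491% of all tested genes fell and 0.0393% rose that often. With path2-1 added the count was 0 too, where 0.826% fell and 0.708% rose. UGT78D1 fell in 2 of 4 with path1-4 added and in 2 of 4 with path2-1 added, and with path2-1 added MYBL2 fell in 2 and CHIL rose in 2.

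**Figure D3:**
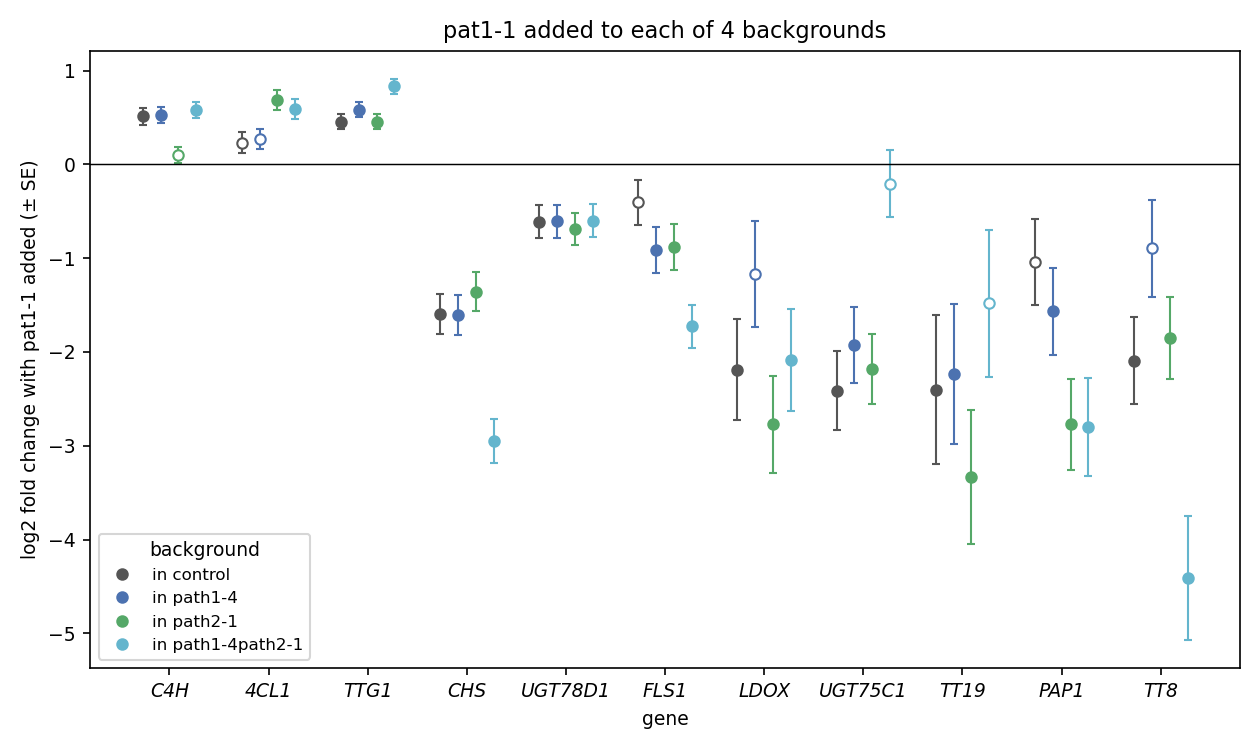
Log2 fold change on adding pat1-1 (y axis, edgeR, whiskers ± SE) for 11 genes (x axis) in 4 backgrounds that share no library, with filled points called and open points not. UGT78D1 lay between -0.69 and -0.60 in all 4, and CHS was at -1.59 in the control background, -1.60 in path1-4, -1.36 in path2-1 and -2.95 in path1-4path2-1.

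Against path1-4, pat1-1path1-4 had 7 genes that fell, where 11.3% of all fell, and 2 that rose, where 10.8% rose. These were MYB12 (-2.44 ± 0.45), TT19 (-2.24 ± 0.75), UGT75C1 (-1.93 ± 0.41), CHS (-1.60 ± 0.21), PAP1 (-1.57 ± 0.46), FLS1 (-0.92 ± 0.25) and UGT78D1 (-0.61 ± 0.17), and TTG1 (0.58 ± 0.08) and C4H (0.53 ± 0.09) rose. Without path1-4 replicate 1, 15 were called in place of 9. Against path2-1, pat1-1path2-1 had 14 genes that fell, where 19.9% of all fell, and 4 that rose, where 18.7% rose. The 5 lowest were DFR (-3.35 ± 0.75), TT19 (-3.34 ± 0.71), LDOX (-2.77 ± 0.51), PAP1 (-2.77 ± 0.48) and UGT75C1 (-2.18 ± 0.37), and 4CL3 (0.78 ± 0.25), 4CL1 (0.68 ± 0.11), PAL2 (0.59 ± 0.14) and TTG1 (0.46 ± 0.08) rose. DFR CPM were 12.3, 7.91 and 8.67 in path2-1 and 0.532, 0.893 and 1.56 in pat1-1path2-1, without overlap. Against path1-4path2-1, the triple combination had 10 genes that fell, where 24.3% of all fell, and 5 that rose, where 24.8% rose. The 5 lowest were TT8 (-4.41 ± 0.66), CHS (-2.95 ± 0.23), PAP1 (-2.80 ± 0.52), MYB12 (-2.34 ± 0.45) and LDOX (-2.09 ± 0.54), and TTG1 (0.83 ± 0.08), 4CL1 (0.59 ± 0.11), MYBL2 (0.58 ± 0.08), C4H (0.58 ± 0.09) and CHIL (0.56 ± 0.19) rose. CHS CPM were 33.5, 50.7 and 38.4 in path1-4path2-1, all above the triple combination.

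Adding path1-4 gave fewer calls. Between pat1-1path1-4 and pat1-1 no gene of the pathway was called with edgeR, where 0.0639% of all tested genes rose and 0.192% fell, 1 had an unadjusted p below 0.05, and DESeq2 called 0 of the 22 to which it gave an adjusted p. Against path2-1, path1-4path2-1 had 6 genes that fell, where 10.7% of all fell, and 3 that rose, where 9.9% rose. These were TT19 (-2.00 ± 0.61), DFR (-1.93 ± 0.65), MYB114 (-1.18 ± 0.40), UGT75C1 (-1.10 ± 0.34), UGT78D1 (-0.55 ± 0.17) and MYBL2 (-0.41 ± 0.08), and FLS1 (0.72 ± 0.21), PAL1 (0.52 ± 0.18) and PAL2 (0.40 ± 0.14) rose. That count of 9 became 5 without path1-4path2-1 replicate 2, 2 without path1-4path2-1 replicate 3 or path2-1 replicate 1, and 1 without path2-1 replicate 3. Against pat1-1path2-1, the triple combination had 3 genes that fell, where 17.7% of all fell, and 3 that rose, where 18.1% rose. These were TT8 (-2.97 ± 0.81), CHS (-1.94 ± 0.23) and UGT78D1 (-0.47 ± 0.18), and C4H (0.58 ± 0.09), TTG1 (0.32 ± 0.08) and MYBL2 (0.25 ± 0.08) rose.

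Adding path2-1 to pat1-1 lowered 2 genes (7.41%), where 11.5% of all fell, and raised 3 (11.1%), where 10.3% rose, so both shares were near those of all genes. C4H (-0.42 ± 0.09) and MYBL2 (-0.37 ± 0.08) fell, and MYB111 (1.15 ± 0.39), 4CL3 (0.73 ± 0.25) and CHIL (0.58 ± 0.20) rose. That count of 5 became 2 without pat1-1 replicate 2 or 3 or without pat1-1path2-1 replicate 1 or 2, and 3 without pat1-1path2-1 replicate 3. Added to path1-4, it lowered MYBL2 (-0.58 ± 0.08) and UGT78D1 (-0.53 ± 0.17), where 9.65% of all fell, and raised none, where 8.63% rose. That count of 2 became 4 without path1-4 replicate 1, and 1 without path1-4 replicate 2 or 3 or path1-4path2-1 replicate 3. Added to pat1-1path1-4, which gives the triple combination, it lowered TT8 (-2.89 ± 0.82), PAP1 (-1.74 ± 0.54), CHS (-1.47 ± 0.24) and UGT78D1 (-0.53 ± 0.18), where 8.71% of all fell. UGT75C1 (1.24 ± 0.41), CHIL (0.69 ± 0.20) and 4CL1 (0.35 ± 0.11) rose, where 8.13% rose. That count of 7 became 2 without pat1-1path1-4 replicate 1 or triple replicate 3, 3 without pat1-1path1-4 replicate 2 or triple replicate 1, and 4 without pat1-1path1-4 replicate 3 or triple replicate 2.

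Interaction terms tested whether effects added on the log2 scale. For pat1-1 with path1-4 edgeR called no gene of the pathway, where 0.0147% of all tested genes were above the sum and 0.0295% below it, 1 had an unadjusted p below 0.05, and DESeq2 called 0 of the 26 to which it gave an adjusted p. For pat1-1 with path2-1, C4H was below the sum (-0.41 ± 0.12, adjusted p = 0.0301), where 7.77% of all were below and 6.97% above. C4H CPM were 51.8 ± 2.83 in the control, 73.9 ± 7.14 in pat1-1, 51.6 ± 7.24 in path2-1 and 55.4 ± 1.45 in pat1-1path2-1. For path1-4 with path2-1, MYBL2 was below the sum (-0.37 ± 0.11, adjusted p = 0.0362), where 4.45% of all were below and 3.77% above. In the triple combination, CHS (-1.74 ± 0.43, adjusted p = 0.0184) and PAP1 (-3.18 ± 0.95, adjusted p = 0.0481) were below the sum of the 3 single effects, where 3.49% of all were below and 3.11% above. The C4H call was lost without control replicate 1 or 2, pat1-1 replicate 2 or 3, pat1-1path2-1 replicate 1 or 2 or path2-1 replicate 1 or 2. The MYBL2 call was lost without control replicate 1 or 2, path1-4 replicate 2, path1-4path2-1 replicate 2 or 3 or path2-1 replicate 1 or 3. The PAP1 call was lost without control replicate 1, 2 or 3, pat1-1 replicate 3, path1-4 replicate 2 or 3, path2-1 replicate 1 or 3 or triple combination replicate 2 or 3, and the CHS call without control replicate 3, each library being left out alone. The highest adjusted p so reached was 0.0934 for C4H, 0.106 for MYBL2, 0.128 for PAP1 and 0.0756 for CHS.

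PAP1 and some of the late genes varied widely between libraries of the same genotype, and others did not. The SD of log2 CPM within genotypes was 1.06 for DFR, 0.981 for TT19, 0.84 for 5MAT and 0.668 for PAP1, against a median of 0.156 over all tested genes. Among the late genes it was lower for UGT78D1 (0.235) and UGT78D2 (0.122). It was 0.0982 for TTG1 and 0.0867 for MYBL2. Spread on this scale also depends on count level, and the median was over genes of all levels. Over the 24 libraries 5MAT held 572 counts, TT19 812, DFR 2207, UGT78D2 8185 and PAP1 8986, against 64729 for TTG1 and 202480 for MYBL2. GL3, with 180 counts, had an SD of 0.729. The part of count level in these SDs was not tested. In a relation chosen after seeing the data, deviations from the genotype means were set against those of PAP1 over the 24 libraries for the 26 other tested genes, with Pearson's r, Spearman's rho and two-sided p from permutation within genotypes. These p-values were not adjusted over the 26 genes. DFR gave r = 0.809 (permutation p = 0.00063) and rho = 0.799 (permutation p = 0.00043). TT19 gave r = 0.746 (permutation p = 0.00169) and rho = 0.768 (permutation p = 0.00037), UGT78D1 gave r = 0.752 (permutation p = 0.00387) and rho = 0.672 (permutation p = 0.00701) and CHS gave r = 0.69 (permutation p = 0.00724) and rho = 0.664 (permutation p = 0.00486). CHI gave r = 0.657 (permutation p = 0.00275) and rho = 0.671 (permutation p = 0.00421) and LDOX gave r = 0.717 (permutation p = 0.00668) and rho = 0.638 (permutation p = 0.0116). Of the other late genes, r was 0.572 for UGT75C1 (permutation p = 0.0776), 0.431 for UGT79B1 (permutation p = 0.0894), 0.425 for 5MAT (permutation p = 0.182) and -0.168 for UGT78D2 (permutation p = 0.352), and it was 0.32 for TT8 (permutation p = 0.212). For C4H r was 0 (permutation p = 1) and for MYBL2 -0.091 (permutation p = 0.659).

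Without the 2 libraries farthest in PAP1, pat1-1 replicate 3 and pat1-1path1-4 replicate 3, r was 0.723 for DFR, 0.683 for TT19, 0.656 for UGT78D1 and 0.598 for CHS. An edgeR fit over all tested genes, with 1 term per genotype and PAP1 as covariate, called 4 of 26 genes rising with PAP1, where 1.38% of all rose and 0.177% fell. In log2 units per log2 unit of PAP1, the slope of DFR was 1.32 ± 0.23 (adjusted p = 0.00623). That of TT19 was 1.47 ± 0.25 (adjusted p = 0.00552), that of UGT78D1 0.27 ± 0.06 (adjusted p = 0.0187) and that of CHS 0.31 ± 0.07 (adjusted p = 0.0416). LDOX was not called, at 0.79 ± 0.22 (adjusted p = 0.0679), nor was CHI, at 0.17 ± 0.05 (adjusted p = 0.0997). The count of 4 became 2 without pat1-1 replicate 3, without pat1-1path1-4 replicate 3 or without path1-4 replicate 3, and 1 without the 2 farthest libraries, so it rests on few libraries.

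**Figure D4:**
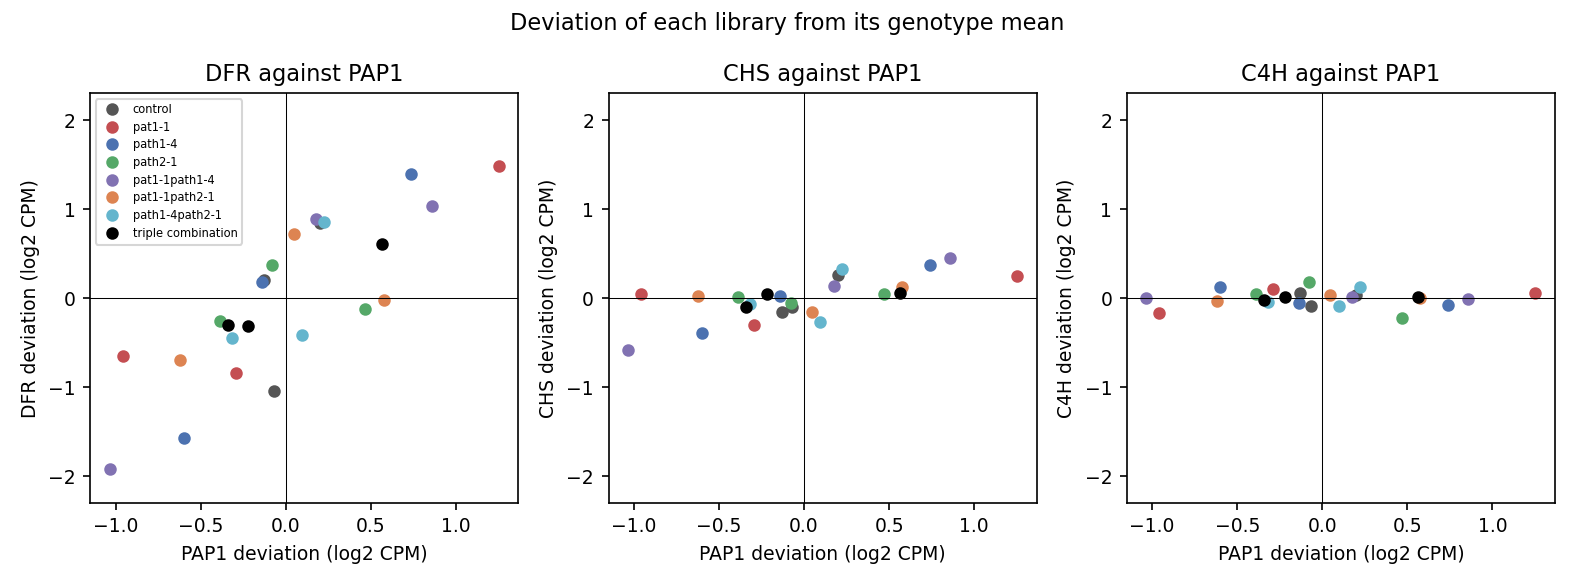
Deviation of each of the 24 libraries from its genotype mean (log2 CPM) for DFR, CHS and C4H (y axes) against PAP1 (x axes). Points are libraries, coloured by genotype. Pearson's r with PAP1 was 0.809 for DFR, 0.69 for CHS and 0 for C4H, in a relation chosen after seeing the data. In the edgeR fit fewer genes were called rising with PAP1 without the 2 libraries farthest in PAP1.

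Neighbouring branches were read from lists chosen with earlier results known, in the triple combination against the control. The counts that follow stand beside 22.8% of all tested genes that rose and 22.6% that fell. Of 9 lignin and sinapate genes 6 rose (66.7%) and 1 fell (11.1%), with a median of 0.34. The cinnamoyl-CoA reductase CCR1 (0.52 ± 0.06), the hydroxylase C3H1 (0.69 ± 0.08), the alcohol dehydrogenase CAD4 (0.58 ± 0.09) and the methyltransferase CCoAOMT1 (0.39 ± 0.07) rose. The one that fell, named after its value was seen, was the aldehyde dehydrogenase REF1 (-0.60 ± 0.13). Summed root markers were 102 to 137 CPM in the same libraries, against 26.1 to 62.5 in the control. Of 4 further entry enzymes the ammonia-lyase PAL4 rose (1.13 ± 0.23) and 4CL5 (-0.72 ± 0.18) and PAL3 (-0.42 ± 0.17) fell, with a median of -0.26. Of 9 tested decoration genes the sinapate glucosyltransferase UGT84A2 fell (-1.30 ± 0.13) and the anthocyanin glucosyltransferase BGLU10 rose (0.36 ± 0.10), with a median of -0.15. Of 8 proanthocyanidin and seed coat genes 2 were tested, and the proton pump AHA10 (-1.41 ± 0.24) and the WRKY factor TTG2 (-0.76 ± 0.26) fell, with a median of -1.09.

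Of 15 light and nutrient regulators 5 rose (33.3%, where 22.8% of all tested genes rose) and 5 fell (33.3%, where 22.6% fell), with a median of 0.05. HYH, a bZIP activator of light responses, had 1.88, 1.9 and 1.37 CPM in the control and 7.66, 10.8 and 10.6 in the triple combination. The groups did not overlap (2.49 ± 0.17, adjusted p = 6.28e-10). Its relative HY5, an activator of CHS in light, rose (0.97 ± 0.16, adjusted p = 4.17e-05) in libraries in which CHS fell. A link between HY5 and CHS was not tested. The B-box protein BBX22 fell (-1.16 ± 0.13, adjusted p = 3.12e-07), and COP1, the ubiquitin ligase that targets HY5, rose (0.33 ± 0.06, adjusted p = 0.000146). Of 8 tested MYB and F-box repressors 1 rose and none fell, with a median of -0.28. It was KFBCHS, an F-box protein that targets chalcone synthase for turnover, with 380, 377 and 457 CPM in the control and 773, 754 and 799 in the triple combination, without overlap (0.94 ± 0.09, adjusted p = 6.58e-08).

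**Figure D5:**
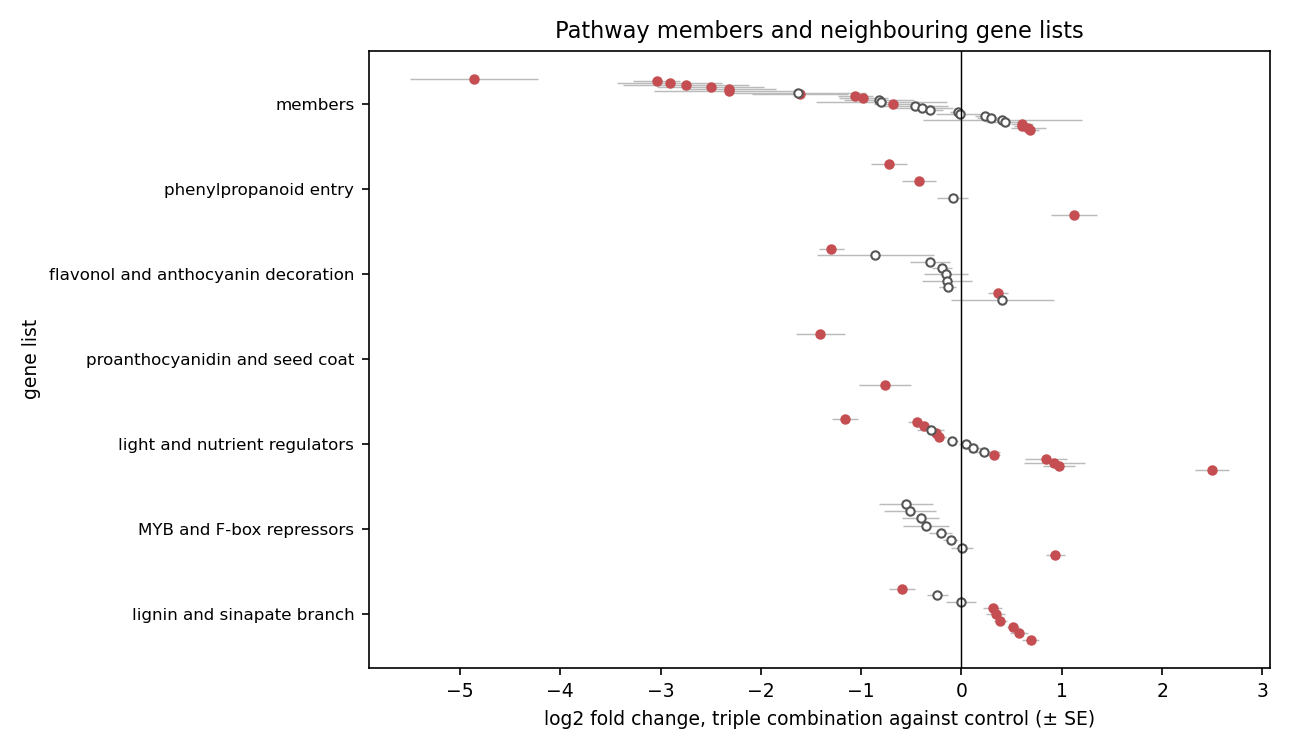
Log2 fold change of the triple combination against the control (x axis, edgeR, whiskers ± SE) for the tested pathway genes and 6 neighbouring lists (rows), with filled points called and open points not. Pathway values ran from -4.86 (TT8) to 0.68 (C4H), and 6 of 9 lignin and sinapate genes rose, where 22.8% of all tested genes rose.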

How the data were processed

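RNA was sequenced on a BGISEQ-500, per the labels' protocols, in 24 libraries of 8 genotypes. The authors deposited raw counts per gene and TPM per gene, and STAR 2.5.1b and the build TAIR10 are named in the submitters' processing notes. The counting tool, strand setting and annotation release are not named there. The deposited TPM were proportional to the deposited counts for 26755 of 26755 genes within 0.1%.

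Counts were tested with edgeR 4.0.16 in R 4.3.3, whose quasi-likelihood F test was fitted to all 24 libraries with 1 term per genotype, TMM scaling and filterByExpr. Benjamini-Hochberg adjustment covered all 20346 tested genes in each of 20 contrasts. The coefficient of biological variation was 10.9%. The fit was tested on simulated data, for the triple combination against the control, with changes set in genes of at least 1 CPM in the control. It recovered 55.2% of 1.5-fold, 86.6% of 2-fold and 98.5% of 4-fold changes, with 6 false calls among 166. Changes in genes of lower level, such as TT8 and MYB12, were not covered. The changed genes were drawn at random, whatever their spread between libraries. The recovered shares need not hold for genes of wide spread, such as DFR, TT19, 5MAT and PAP1. Their SD of log2 CPM within genotypes was 0.668 to 1.06, against a median of 0.156. Alternatives were DESeq2 1.42.0, RLE size factors, no filter, fewer genotypes, a length trend removed and each library left out. Intervals cover counting error only. The labels call the libraries biological replicates and say neither how plants were pooled nor which of the differing pot sizes each plant had. The p-values therefore set differences against the spread between these libraries only, estimated over all 24 libraries and moderated across genes.

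The members, the lists and the tests were chosen with earlier results of these data known. All 31 genes are accounted for, and other comparisons name all called genes up to 10 or else the 5 with the largest change in each direction. Genes of other lists are named by smallest adjusted p, up to 4 a list. Promoter windows came from RefSeq TAIR10.1.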

Additional observations from a re-analysis of the deposited data

Results flagged for a closer look

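A difference from the sum of effects on the log2 scale was called for 4 values. For C4H and MYBL2 the test was of the interaction of 2 mutations. For CHS and PAP1 it set the triple combination against the sum of the 3 single effects, which does not show which mutations depart from adding. C4H in pat1-1 with path2-1 was below the sum of both effects (-0.41 ± 0.12, adjusted p = 0.0301), and the call was kept in 8 of 17 alternatives, with adjusted p from 0.00692 to 0.0934. MYBL2 in path1-4 with path2-1 was below the sum (-0.37 ± 0.11, adjusted p = 0.0362), and the call was kept in 7 of 17 alternatives, with adjusted p from 0.0142 to 0.114. CHS in the triple combination was below the sum of the 3 single effects (-1.74 ± 0.43, adjusted p = 0.0184), and the call was kept in 20 of 21 alternatives, with adjusted p from 0.00211 to 0.0756. PAP1 in the triple combination was below that sum (-3.18 ± 0.95, adjusted p = 0.0481), and the call was kept in 8 of 21 alternatives, with adjusted p from 0.0259 to 0.128. Causes of these differences were not tested.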

How the results depend on the processing

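Of 133 called values of single genes, 77 kept their call under every alternative run, and none of 6859 alternative values of a single gene reversed, with 238 weaker and 106 stronger. The number of pathway genes called in the triple combination against the control was 15, and 16 with DESeq2, 17 with a length trend removed and 15 to 17 with 1 library left out. With 1 library left out, counts were 6 to 12 in pat1-1, 8 to 15 in pat1-1path1-4, 9 to 14 in pat1-1path2-1 and 1 to 5 in path1-4path2-1 against the control. They were 2 to 4 for the triple combination against pat1-1path1-4, 4 to 6 against pat1-1path2-1 and 13 to 14 against path1-4path2-1. They were 6 to 15 for pat1-1path1-4 against path1-4, 16 to 18 for pat1-1path2-1 against path2-1, 2 to 4 for pat1-1path2-1 against pat1-1, 1 to 4 for path1-4path2-1 against path1-4 and 1 to 9 for path1-4path2-1 against path2-1. For interactions they were 0 to 3 for pat1-1 with path2-1, 0 to 5 for path1-4 with path2-1 and 0 to 3 for the triple combination minus the sum of singles, and the genes rising with PAP1 numbered 2 to 5.

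The interaction of pat1-1 and path2-1 gave 4 calls with DESeq2, 2 with a length trend removed and 3 without the filter, in place of 1. That of path1-4 and path2-1 gave 0 with a length trend removed, without the filter and with only the genotypes compared. The triple combination minus the sum of singles gave 4 with DESeq2 and 1 with a length trend removed, with only the genotypes compared and without the doubles with path2-1. Against path1-4, path1-4path2-1 had 1 call with only those genotypes, and 1 gene rose with PAP1 without the 2 farthest libraries, an alternative chosen after seeing the data. The cause was not tested. No paired analysis was possible because the library numbers are not shared between genotypes. TT8, MYB12, GL3 and UGT79B1 rest on few counts, which limits the size of their changes.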
